A study of Drosophila melanogaster with 2 samples.

Results

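Intron summits near a start site are the Slbo-eGFP peaks whose summit lay inside a gene, in no annotated exon of any gene, and more than 500 but at most 2000 bp from the nearest annotated transcription start site of any gene. The rule used position alone, and it took 1220 of the 8714 summits on X, chromosome 4 and the autosomal arms (2L and 2R, 3L and 3R), a share of 14.0% (95% Wilson interval 13.3 to 14.7). ChIP-seq, the sequencing of DNA recovered with a protein by immunoprecipitation, was done on intact Drosophila melanogaster embryos aged 8 to 24 h of a strain called slbo-GFP, which expresses Slbo fused to eGFP. Precipitation was with anti-GFP according to the sample descriptions, but the antibody field names slbo. The 2 samples were biological replicates of that 1 group, so no comparison between groups was possible, and no control without the transgene was analysed here. Whole embryos mix every tissue, so a peak cannot be assigned to a cell type, and a site bound in few cells and a site bound weakly in many cannot be told apart. The deposited peak lists carry no read counts and the depth of each sample is unknown. Replicate 1 alone gave 7151 thresholded peaks and replicate 2 gave 5445. The same rule took 1023 of 7124 arm summits (14.4%) in replicate 1 and 795 of 5382 (14.8%) in replicate 2, a mean of 14.6% ± 0.29 (SD, n = 2).

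Slbo (slow border cells) is a fly member of the C/EBP family of basic leucine zipper transcription factors, which bind DNA as dimers and recognise a short palindromic site. It is best known for border cell migration in the ovary and is also made in the embryo. Sequence just inside a gene, above all in the first intron, often holds enhancers and alternative promoters in the compact fly genome. A ChIP peak there marks DNA recovered with the tagged protein, whether the protein touches the DNA itself or is held by another factor.

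The windows of 101 bp centred on the summits of 5 of the strongest members are shown because the base composition described below was measured in them. For CG11050 and ph-p the flank is shown as well, a window of the same length centred 450 bp away. All are RefSeq sequence of the dm6 build, 5′ to 3′ on the plus strand, and capitals mark runs of at least 6 bases made only of A and T.
CG11050 summit, chr2L:6612674-6612774: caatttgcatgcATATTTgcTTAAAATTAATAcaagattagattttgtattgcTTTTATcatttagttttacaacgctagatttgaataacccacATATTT
CG11050 flank, chr2L:6612224-6612324: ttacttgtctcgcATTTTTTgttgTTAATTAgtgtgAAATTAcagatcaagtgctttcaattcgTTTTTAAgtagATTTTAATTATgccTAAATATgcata
ph-p summit, chrX:2137309-2137409: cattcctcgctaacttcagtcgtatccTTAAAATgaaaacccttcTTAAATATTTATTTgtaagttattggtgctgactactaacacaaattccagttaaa
ph-p flank, chrX:2137759-2137859: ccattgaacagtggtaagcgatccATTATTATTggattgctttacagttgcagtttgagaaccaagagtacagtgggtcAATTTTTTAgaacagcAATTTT
CG32772 summit, chrX:4910311-4910411: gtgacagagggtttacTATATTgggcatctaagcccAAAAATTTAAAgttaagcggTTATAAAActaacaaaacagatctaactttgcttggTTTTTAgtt
CG9663 summit, chr2L:3302139-3302239: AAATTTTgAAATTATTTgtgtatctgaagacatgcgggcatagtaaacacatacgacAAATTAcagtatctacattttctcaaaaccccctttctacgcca
norpA summit, chrX:4324933-4325033: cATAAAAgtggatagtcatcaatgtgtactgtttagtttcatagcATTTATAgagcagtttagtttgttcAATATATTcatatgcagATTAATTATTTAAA
The CG11050 window held 4 such runs and its flank 6, while the ph-p window held 2 and its flank 3. The A and T share was 75.2% at the summit and 73.3% in the flank of CG11050, and 68.3% and 63.4% in ph-p.

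A second set shows 3 of the 4 strongest members found in both replicates that held the C/EBP consensus within 50 bp of the summit, the site that the C/EBP family recognises. The consensus is TTRYRYAA, in which R stands for A or G and Y for C or T, and capitals mark it on the plus strand of the same build.
CG3726, chrX:5918860-5918960: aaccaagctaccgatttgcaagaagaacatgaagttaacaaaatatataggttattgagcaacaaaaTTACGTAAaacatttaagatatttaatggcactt
Trl, chr3L:14759441-14759541: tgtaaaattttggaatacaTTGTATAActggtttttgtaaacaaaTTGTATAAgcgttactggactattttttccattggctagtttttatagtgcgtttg
Csk, chr3R:11649609-11649709: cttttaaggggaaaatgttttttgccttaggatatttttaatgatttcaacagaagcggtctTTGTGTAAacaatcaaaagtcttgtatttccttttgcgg
The window in Trl, the gene of the GAGA factor, held 2 copies. Those in CG3726 and in Csk, which encodes the C-terminal Src kinase, held 1 each.

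Within introns, summit density was highest close to a start site and fell unevenly with distance. In bins of 250 bp, introns held 134 summits per Mb between 500 and 750 bp from the nearest start (95% exact Poisson interval 119 to 150) and 125 per Mb between 750 and 1000 bp (111 to 141). The density was 97.2 per Mb in the next bin and 88.1 per Mb (74.0 to 104) between 1750 and 2000 bp. Just past the limit, between 2000 and 2250 bp, it was 64.2 per Mb (51.9 to 78.6), and beyond 5000 bp it was 35.9 per Mb (33.7 to 38.2). Between 2250 and 2500 bp it was 77.5 per Mb (63.4 to 93.7), an interval that overlaps that of the last member bin. The bins from 2500 to 5000 bp held 56.8 to 70.2 per Mb. The intervals of both bins under 1000 bp lay above those of every bin beyond 2000 bp. As distance is what the rule used, these densities are a description and carry no test. Over the whole class the density was 107 per Mb in 11.4 Mb of sequence, against 44.8 per Mb in introns farther out (1853 summits), 221 per Mb within 500 bp of a start site (4018 summits, called promoter summits here) and 66.9 per Mb in intergenic sequence at the same distance (494 summits). Distances of the members had a median of 1055.5 bp and quartiles of 749.75 and 1460.75 bp.

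**Figure D1:**
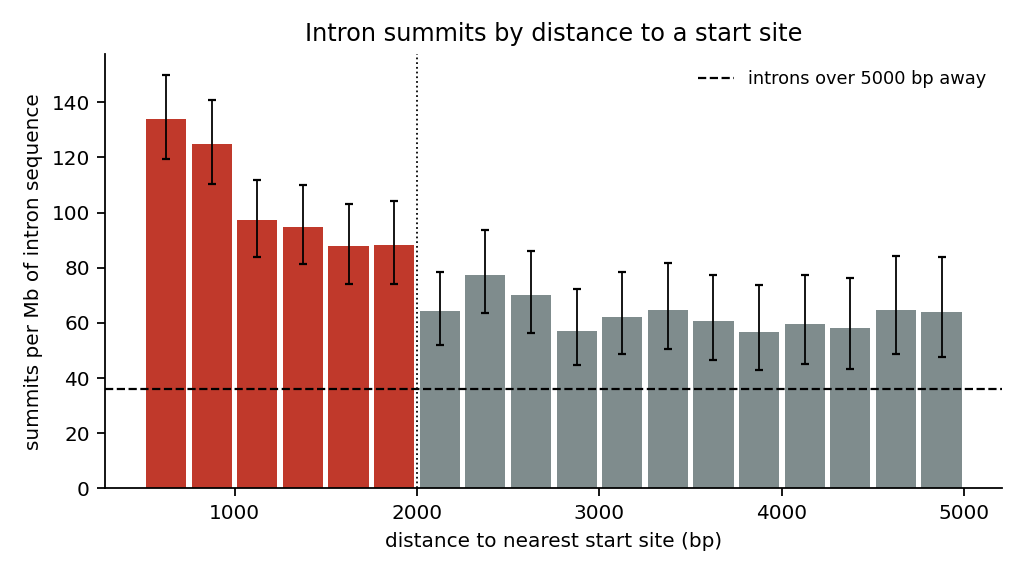
Intron summits per Mb of intron sequence (y axis) in bins of 250 bp of distance to the nearest start site (x axis, bp), with 95% exact Poisson intervals. Red bars are the members, grey bars are introns beyond 2000 bp, and the dashed line is the density beyond 5000 bp, 35.9 per Mb. The bars fall from 134 per Mb at 500 to 750 bp to 64.2 per Mb at 2000 to 2250 bp, and the next bar stands at 77.5 per Mb.

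Most members lay in a first intron and nearest to a start of the gene that held them. The rule keeps sequence near start sites, which favours both, and neither share was compared with that of the eligible sequence. The lowest intron number over the transcripts of all host genes was counted. The intron was the first of a transcript for 972 members (79.7%), the second for 160 and a later one for 88, and the intron had a median length of 4836 bp (quartiles 2033 and 11960). The nearest start belonged to the host gene for 1005 members (82.4%) and to another gene for 215, and it was the start of a protein-coding gene for 1115. Of the members, 778 (63.8%) lay downstream of that start and 442 upstream of it, as happens where a gene has several starts or another gene starts inside it. The eligible sequence was split in the same way, so the densities were alike, 105 per Mb downstream and 109 per Mb upstream. Median signals were 123.6 and 124.0. The median signal was 128.2 in first introns, 107.9 in second introns and 98.8 in later ones, and 127.7 where the nearest start was the host's own against 102.5 where it was another gene's.

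The peak signal, the peak caller's value in the series-level list, ranked members between promoter summits and summits deeper in introns. Members ran from 2.02 to 4231 with a median of 123.6 and quartiles of 83.7 and 232. The median was 150.0 at promoter summits, 109.9 at intergenic summits of the same distance and 103.8 at intron summits beyond 2000 bp. Of the 100 strongest peaks, 18 were members, 73 promoter summits and 3 intron summits farther out. In the replicates' own lists the median member stood at percentile 49.5 ± 2.56 of the list (SD, n = 2), against 41.2 ± 1.41 for introns farther out and 57.3 ± 1.43 for promoter summits. The order of the classes was the same in both replicates, and the gaps between them were wider than the SDs.

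A peak of both replicates' own thresholded lists overlapped 688 members, 56.4% (95% Wilson interval 53.6 to 59.2), against 53.7% of all arm summits. Replicate 1 had a peak at 956 members, replicate 2 at 759, and neither at 193. The share was 46.0% for introns farther out, a difference of 10.4 percentage points (Newcombe interval 6.75 to 13.9, exact test, adjusted p = 6.1e-08). For promoter summits it was 61.9%, a difference of -5.50 points (-8.67 to -2.36, exact test, adjusted p = 0.00096), and for intergenic summits of the same distance it was 50.6%, 5.79 points below the members (0.583 to 11.0, adjusted p = 0.032). These are Fisher's exact tests over peaks, two-sided and adjusted by Benjamini-Hochberg over the 3 comparisons, neighbouring peaks being treated as independent. The share moved with signal. Within quintiles of the signal of all summits it was, from weakest to strongest, 3.14, 15.7, 61.7, 97.5 and 100% for members and 4.33, 12.9, 60.3, 95.1 and 100% for introns farther out. Among peaks at or above the list's median signal, the difference to introns farther out was 0.76 points (exact test, adjusted p = 0.90) and that to promoter summits turned to 2.12 points higher (adjusted p = 0.27). Replicate 1's own summits were also scored by overlap with replicate 2's thresholded list alone. There the call against promoter summits was lost (-0.0337 points, exact test, adjusted p = 1.0), and so was that against introns farther out (4.63 points, exact test, adjusted p = 0.061). In the series-level list with a reciprocal overlap of at least 50%, the call against promoter summits was lost too (-2.07 points, exact test, adjusted p = 0.21).

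**Figure D2:**
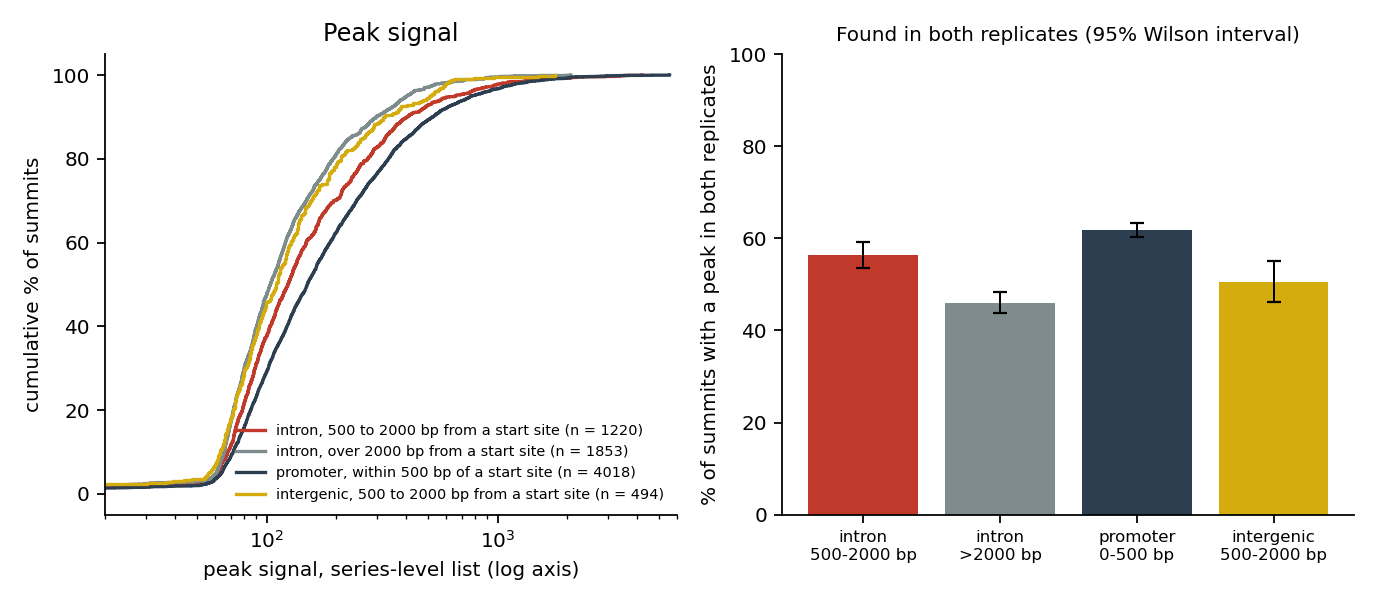
Left, the cumulative percentage of summits (y axis) by peak signal in the series-level list (x axis, log scale) for members and 3 other location classes. Right, the percentage of summits overlapped by a peak of both replicates, with 95% Wilson intervals. Members, in red, have a median signal of 123.6 and a share of 56.4%, between introns farther out (103.8 and 46.0%) and promoter summits (150.0 and 61.9%).

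The replicates ordered the members alike. Of the 1220, 1178 lay in a peak of both replicates' ranked lists, which also hold peaks that miss the threshold. Their signals had medians of 70.7 in replicate 1 and 56.0 in replicate 2, with a Spearman correlation across summits of 0.845 and a Pearson correlation of log2 signals of 0.898. The median ratio of replicate 1 to replicate 2 was 1.22, and 90% of the members had a ratio from 0.708 to 2.11. For introns farther out the Spearman correlation was 0.754. Summits share the same pair of libraries and are not independent replicates, so these correlations carry no p. The series-level list was itself filtered on a reproducibility measure, the irreproducible discovery rate, which can favour such agreement. Members within the same replicate peak also share its signal.

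**Figure D3:**
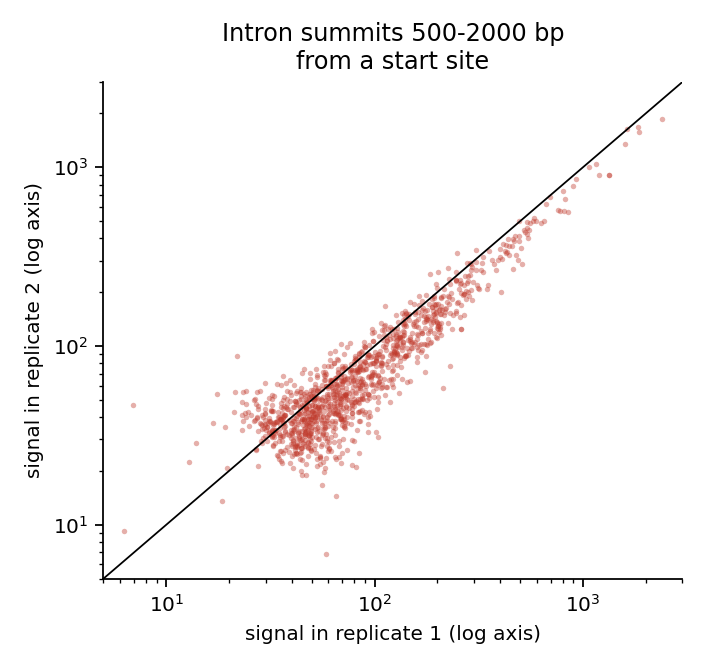
Signal of each of the 1178 members found in both ranked lists in replicate 1 (x axis) and replicate 2 (y axis), both log axes, with the line of equal values. The points follow the line, with a median ratio of replicate 1 to replicate 2 of 1.22, and scatter most at low signal.

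The 12 strongest members found in both replicates had series-level signals from 1513 to 4231. CG11050, whose member had rank 3 among all arm summits, had a series-level signal of 4231, with 2394 in replicate 1 and 1858 in replicate 2 (chr2L:6612537-6612905, second intron, 1037 bp downstream of its start). The peak in ph-p, which encodes a subunit of the Polycomb repressive complex PRC1, had 3248, with 1631 in both replicates (chrX:2137171-2137542, first intron, 504 bp upstream of the nearest start). In CG32772 the signal was 2923, with 1582 and 1342 (chrX:4910053-4910556, first intron, 1259 bp downstream). The 3 peaks were at similar heights in both replicates, the widest gap being that of CG11050. HmgZ and HmgD, paired genes of HMG-box chromatin proteins, held a peak of 3534, with 1846 in replicate 1 and 1687 in replicate 2, 551 bp upstream of the HmgZ start. Adf1, the gene of a MADF-domain transcription factor, held one of 3398, with 1866 and 1580, 778 bp downstream of a start. Trl, which encodes the GAGA factor, held one of 2073, with 1064 and 1006 (chr3L:14759311-14759729, second intron, 1529 bp upstream of the nearest start). In each of these 3 genes replicate 1 was the higher, by less than its median ratio of 1.22. CG9663 had 2348 (1326 and 906), the widest ratio between replicates among the 12 strongest. The phototransduction phospholipase C gene norpA had 2191 (1156 and 1041), and CG3726 had 2081 (1188 and 902). LPCAT, which encodes a lysophospholipid acyltransferase, had 1784, CG9837 had 1678 and MYPT-75D, a myosin phosphatase targeting subunit, had 1513. Of the 12, 5 had a summit within 500 bp of the nearest start, and its signal ran from 102 near CG9663 to 490 near LPCAT, far under that of the member in each case.

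A summit at the nearest start was the exception for members as a whole. It was present for 476 of 1220 (39.0%, 95% Wilson interval 36.3 to 41.8), against 30.2% for introns farther out and 25.8% of all 23581 annotated start positions on the arms. In the replicates' own lists the share was 36.2% and 30.6%. The share was 45.4% for members downstream of the start and 27.8% for those upstream. Where both were present the member was the stronger of the pair in 242 cases (50.8%), and their signals were nearly unrelated across pairs (Spearman correlation 0.0988). Members with a summit at the start had a median signal of 133.7, and 61.8% of them were found in both replicates. Members without one had 118.5 and 53.0%. The nearest other summit of any class lay a median of 1429 bp away.

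Members were richer in A and T at the summit than beside it. In the 101 bp around the summit 64.2% of bases were A or T, against 58.1% in the flank windows, whose centre fell in an exon for 18.0% of members. In the replicates' own lists the means were 65.8 ± 0.244% at summits and 58.2 ± 0.0403% in flanks (SD, n = 2), a gap well beyond the SDs. Summit windows held a mean of 23.1 bases in runs of A and T only of at least 6 (SD 15.5 over 1220 windows), and flanks 15.0 (SD 13.4), and such a run was present in 88.2% and 77.0% of windows. Introns farther out were alike, with 64.3% at the summit, and promoter summits had 61.1%. By position the content of members peaked at the summit at 65.1% and was 57.5% and 57.1% at 250 bp to either side. Members found in both replicates had 67.1% and the others 60.6%.

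**Figure D4:**
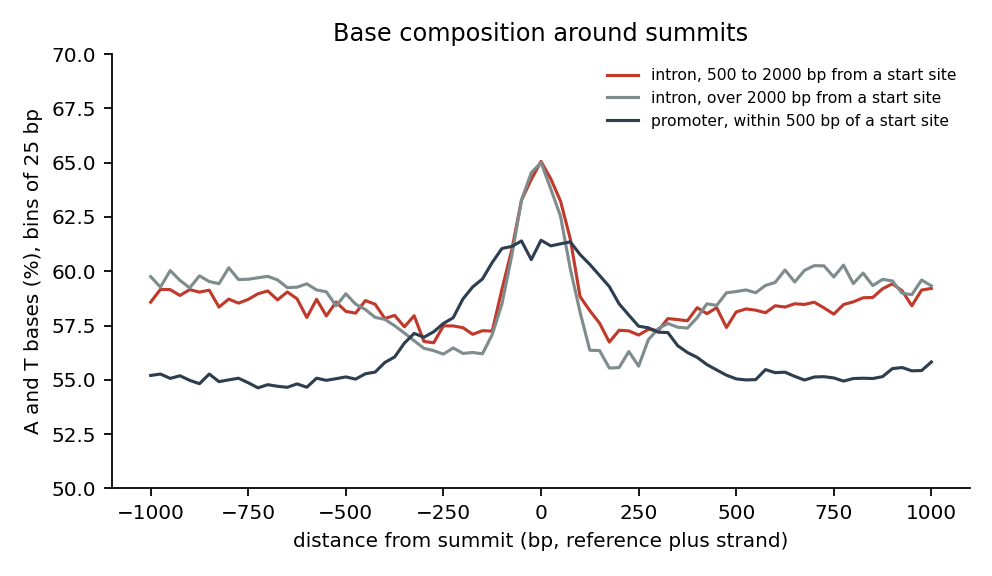
Percentage of A and T bases in bins of 25 bp (y axis) by distance from the summit (x axis, bp, plus strand) for members, introns farther out and promoter summits. The lines of both intron classes peak together at the summit, at 65.1% for members, while promoter summits show a lower and wider rise. The y axis starts at 50%.

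The C/EBP consensus was about as frequent at member summits as beside them, and the difference did not pass the test. TTRYRYAA occurred on either strand in 74 windows (6.07%, 95% Wilson interval 4.86 to 7.55) and in 67 flanks (5.49%), with an adjusted p of 1 (two-sided exact McNemar test, Benjamini-Hochberg over 16 motifs). Its share was 5.96% in replicate 1's members and 6.79% in replicate 2's. It was 6.54% in members found in both replicates and 5.45% in the others, with overlapping intervals (4.92 to 8.64 and 3.82 to 7.72). A looser form, TTRCNNAA, which shares some sites with the consensus, was in 17.3% of summits and 13.2% of flanks (exact test, adjusted p = 0.052). In the conservative list that difference passed the threshold, with 17.2% and 12.1% (exact test, adjusted p = 0.0057), and in replicate 2's own list it was 20.8% and 13.1% (adjusted p = 0.00043). Among members at or above the list's median signal it passed as well, with 19.7% and 12.7% (exact test, adjusted p = 0.0060). It did not pass in replicate 1's own list (exact test, adjusted p = 0.059), with the flank on the other side (0.24), with flanks that touch no exon (0.17), with windows of 25 bp to each side (0.075) or with protein-coding starts only (0.0998).

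One of the 16 motifs differed from the flanks, and it was the scarcer at summits. The GAGA element GAGAGAG, bound by the GAGA factor that Trl encodes, was in 14 summit windows (1.15%) and 44 flanks (3.61%, exact test, adjusted p = 0.0012). It was in 0.880% of summits and 3.03% of flanks in replicate 1, and in 0.377% and 4.28% in replicate 2. Of the 623 members at or above the list's median signal none held it, which allows a share of up to 0.482% by counting error, against 4.17% of their flanks. With windows of 25 bp to each side the difference missed the threshold (exact test, adjusted p = 0.075). The other motifs, with summit and flank shares, did not pass over all members. They were the AP-1 site TGANTCA (3.28 and 2.79%), the CRE TGACGTCA (0.164 and 0.328%), the DRE core TATCGATA (0.246% in each), CACACACA (2.87 and 4.34%), the Zelda site CAGGTAG (0.246 and 0.0820%), the E-boxes CACGTG (0.574 and 1.56%) and CAGCTG (3.52 and 3.93%), and the GATA site AGATAAG (1.48 and 1.56%). The rest were the STAT site TTCNNNGAA (2.62 and 2.79%), the Grainyhead site ACCGGTT (0.492 and 0.574%), the core promoter motif 1 core GGTCACAC (0.328% in each), AGGTCA, which is part of the EcR site (2.13 and 2.54%), and a run of 8 A (8.61 and 6.56%). In the conservative list CACACACA (2.21 and 4.33%, exact test, adjusted p = 0.022) and CACGTG (0.509 and 1.78%, adjusted p = 0.024) passed. At or above the list's median signal CACACACA (1.12 and 4.33%, exact test, adjusted p = 0.0060) and the run of 8 A (11.1 and 6.26%, adjusted p = 0.013) did.

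Against promoter summits 6 of the 16 motifs differed, and against introns farther out none passed the test. The DRE core, the site of the promoter factor DREF, was in 0.246% of members and 4.90% of promoter summits (adjusted p = 3.0e-18), and motif 1 was in 0.328% and 2.36% (adjusted p = 1.7e-06, Fisher's exact test, two-sided, adjusted over 16 motifs). CAGCTG was also the scarcer in members, at 3.52% against 5.85% (exact test, adjusted p = 0.0051). The AP-1 site was in 3.28% against 1.79% (exact test, adjusted p = 0.0081), CACACACA in 2.87% against 1.49% (adjusted p = 0.0081) and the run of 8 A in 8.61% against 5.75% (adjusted p = 0.0027). In replicate 2's own list 2 motifs passed, the DRE core and motif 1, and in replicate 1's own list 4, these and CAGCTG and the run of 8 A. The AP-1 site and CACACACA passed in neither. The C/EBP consensus was in 6.07% against 4.55% (exact test, adjusted p = 0.078). Against introns farther out, where the consensus was in 7.45%, Fisher's exact test called 0 of 16 motifs, and 0 had an unadjusted p under 0.05. The interval of the consensus difference was -3.14 to 0.470 percentage points.

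Over all 6-mers, both strands merged, the differences from the flanks followed base composition. Of 2080 6-mers in at least 10 windows, 136 (6.54%) were higher at summits and 142 (6.83%) lower, the threshold being a ratio of 1.5 or more in that direction with an adjusted p below 0.05 (exact McNemar test, Benjamini-Hochberg). The median ratio of summit to flank windows rose from 0.657 for 6-mers with no A or T to 1.59 for those with nothing else, and 24 of the 36 made only of A and T were called higher. TTAAAA was in 362 summit windows and 182 flanks, a ratio of 1.99 (exact test, adjusted p = 3.9e-15), and ATATTA was in 222 and 88, a ratio of 2.52 (adjusted p = 4.1e-13). Both ratios lay above the median of 1.59 for their composition, and ATATTA also above its 95th percentile of 2.29. TCTTAA was in 143 and 57 windows (exact test, adjusted p = 2.7e-08) and CTTAAA in 186 and 87 (adjusted p = 1.0e-07). With TTAAAA they overlap to give TCTTAAAA, picked after these values were seen, which was in 2.30% of summits and 0.656% of flanks. It was in 1.35% of windows of introns farther out and 1.44% of promoter summits.

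A few 6-mers went against the trend with composition or beyond it. Those named here were chosen by their p within each composition after the values were seen. ACAGTG, with 3 letters A or T, was in 121 summit windows and 72 flanks (exact test, adjusted p = 0.0045). Its share was 11.1% at summits and 4.79% in flanks in replicate 1's list, and 9.06% and 5.53% in replicate 2's. GCTAGC, with 2, was in 25 and 8 (exact test, adjusted p = 0.036), and in 1.76% and 1.17% in replicate 1 but 2.01% and 0.629% in replicate 2. CTATGA, with 4, followed the trend in direction, in 45 and 15 (exact test, adjusted p = 0.0031). Its ratio of 3.0 lay above the 95th percentile of 1.76 for its composition. Also following the trend in direction, GCCGAC was in 13 and 50 (exact test, adjusted p = 0.00012) and CGACGA in 16 and 55 (adjusted p = 0.00020). Their ratios of 0.26 and 0.291 lay under the 5th percentiles for their compositions, 0.325 and 0.408. In replicate 1's own list 166 6-mers were higher and 227 lower, and in replicate 2's 142 and 174. At or above the list's median signal there were 171 and 223. Where only the 958 members whose flank touched no exon were used, an alternative chosen after seeing the data, 63 were higher and 41 lower.

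**Figure D5:**
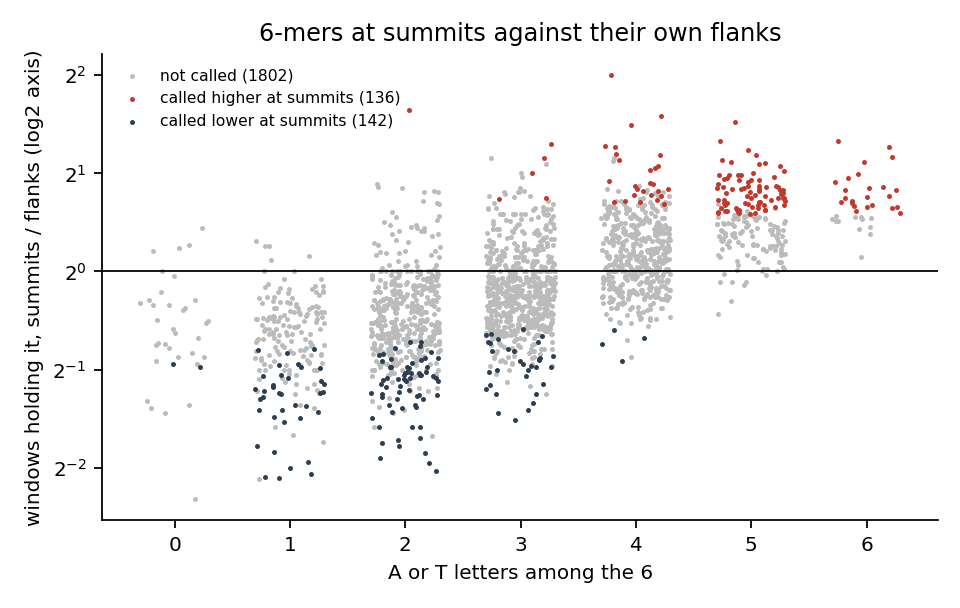
Ratio of summit windows to flank windows that hold a 6-mer (y axis, log2 scale) by its number of A or T letters (x axis, points spread sideways for sight). Each point is 1 of 2080 6-mers, red for the 136 called higher, dark blue for the 142 called lower and grey for the rest. The cloud rises with A and T content, from a median of 0.657 to one of 1.59.

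Members were spread over many genes. Of 9005 protein-coding genes with any sequence that met the rule, 903 (10.03%) held at least 1 member, 239 held at least 2 and 86 at least 3. The share rose with the length of such sequence in the gene, and it was 0.222% in the second quintile of genes by eligible length, 12.7% in the fourth and 35.1% in the longest. In the shortest quintile 0 of 1801 genes held one, which allows a share of up to 0.167%. Tlk, the gene of the Tousled-like kinase, held 11 members in 17.7 kb of eligible sequence, 6 of them in both replicates, with signals from 17.3 to 780. CHES-1-like, a forkhead factor gene, held 6 in 7.48 kb, all in both replicates and up to 1326. In pnt, the gene of the ETS factor Pointed in EGFR signalling, 3 of 6 were in both. CG1677 and lncRNA:CR44357 overlap and share the same 6 members, from 160 to 500, all in both replicates. CG32264, CG43658, Mob2, RhoGAP18B, bun and shn held 5 each, in both replicates for 5 of those in CG32264, 4 in shn, 3 in RhoGAP18B, 2 in CG43658 and bun, and 1 in Mob2. The genes with most members had long eligible sequence, and CHES-1-like and RhoGAP18B had the least of these.

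For the signalling lists and the others below, the shares are to be read against 10.03% of all eligible coding genes and 35.1% of those in the longest quintile, and no list was tested. A gene counts by a member in its introns, whose nearest start can belong to another gene. Below, that was so for the strongest member of drk, mam, ptc, kay, Hr4, EcR, br, kis, brm, Ubx, kirre, dpy, Fas3 and pnt. Of 18 eligible EGFR and Ras genes 9 held a member, among them 8 of the 9 in the longest quintile. drk, the adaptor that couples receptors to Ras, had its strongest at 664 (374 and 288 in replicates 1 and 2), S (Star), which carries the ligand through secretion, at 455 (254 and 210) and the feedback inhibitor sty at 361 (188 and 166). All 3 were in both replicates, and replicate 1 was the higher in each. Of 13 BMP and activin genes 7 held one, 5 of them among 7 in the longest quintile. The strongest were in shn, a zinc finger partner of the pathway's Smads, at 847 (506 and 352), in the receptor wit at 758 (427 and 331) and in the Smad gene Mad at 359 (207 and 150). Of 13 JAK/STAT genes 5 held one, 4 of 4 in the longest quintile, with Socs36E, a feedback inhibitor, at 324, Stat92E, the pathway's transcription factor, at 297 and the repressor ken at 211, each in both replicates. The Notch list had 3 of 15, 3 of 5 in the longest quintile. It was led by the ubiquitin ligase neur at 595, with numb at 122 and mam at 111. The Wnt and Hedgehog list had 5 of 17, 5 of 11 in the longest quintile. It was led by the Hedgehog receptor ptc at 167, then sgg at 141 and fz2 at 86.7.

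Of 15 lipid storage and fat body genes 8 held a member, 5 of them among 9 in the longest quintile. Lsd-2, which codes for a coat protein of lipid droplets, had 796 (479 in replicate 1 and 321 in replicate 2), the lipase gene bmm 470 (269 and 196) and the insulin receptor gene InR 298 (156 and 150). All 3 were in both replicates. Of 12 bZIP factor genes, the class Slbo belongs to, 5 held one, all 5 among 7 in the longest quintile. The strongest were in CrebB at 377 (208 and 186), kay, the fly Fos, at 288 (146 and 140) and Pdp1 at 172 (111 and 65.4). Of 17 ecdysone pathway genes 5 held one, 5 of 12 in the longest quintile. All 5 were in both replicates, with the nuclear receptor genes Hr4 at 555 and EcR at 473 and the zinc finger gene br at 501. Of 12 clock genes 4 held one, 3 of 7 in the longest quintile, led by the kinase gene dco at 311. Of 18 Polycomb and trithorax group genes 4 did, 3 of 4 in the longest quintile. They were ph-p at 3248, Trl at 2073, the remodeller kis at 222 and brm at 142. Of 16 innate immunity genes 3 held one, 2 of 6 in the longest quintile. The strongest was in PGRP-LB, a peptidoglycan amidase, at 431, then Tak1 at 180 and Tl at 65.1. Of 9 Hox genes 2 held one, 2 of 5 in the longest quintile, with Abd-B at 262 and Ubx at 64.4. No cytosolic ribosomal protein gene did, but only 8 were eligible, which allows up to 37.5%, and 0 were in the longest quintile.

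Lists of tissue genes held members at varied shares. The neuron and glia list had 4 of 18, 4 of 13 in the longest quintile, with the RNA-binding neuronal marker elav at 736 (464 in replicate 1 and 268 in replicate 2), fru at 361 and nrv2 at 148. The muscle list had 3 of 21, 1 of 9 in the longest quintile, with the myoblast fusion receptor kirre at 274, mbc at 91.3 and mys at 61.3. The hemocyte and matrix list had 5 of 15, 4 of 6 in the longest quintile. It was led by the zinc finger gene zfh1 at 769 (431 and 336), then Pvr at 181 and ush at 169. The epidermis and cuticle list had 5 of 15, 4 of 8 in the longest quintile. It was led by the apical polarity gene crb at 350, then dpy at 164 and Fas3 at 120. The gut and Malpighian tubule list had 3 of 13, 2 of 4 in the longest quintile. They were bowl at 108, Vha16-1 at 72.8 and GATAe at 55.5, and none of these was found in both replicates. The trachea list had 2 of 10, 2 of 8 in the longest quintile, pnt at 247 and rib at 142. Of the genes named from the other lists, mam, sgg and mbc had their strongest member in replicate 1's thresholded list only. Those of mys, Tl and Ubx were in neither replicate's thresholded list. In some list genes named, the summit at the nearest start was the stronger. Its signal was 1147 for elav, 547 for bmm, 508 for mbc, 352 for mys, 127 for Tl and 109 for fz2. In the other list genes named it was weaker than the member or absent.

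By arm, members numbered 207 on 2L, 221 on 2R, 245 on 3L, 282 on 3R, 263 on X and 2 on the small chromosome 4. Per Mb of eligible sequence this was 100 to 108 on the 4 autosomal arms and 119 on X, but 15.5 on chromosome 4. On X 63.1% were found in both replicates, against 52.2 to 56.6% on the 4 autosomal arms, and the median signal was 131.6 against 114 to 127. Neither is given here for all summits of an arm. At the outer limit, the members in msn and hiw lay 1999 bp from the nearest start (signals 181 and 406) and that in LpR1 1997 bp (99.8). Just outside, summits lay at 2014 bp in lncRNA:CR44320 (256.2), 2016 bp in Ptp61F (110) and 2016 bp in CG5521 (57.8). At the inner limit, those in CG43078, px and qtc lay at 502, 502 and 503 bp (78.9, 93.3 and 245). Those in Inos, CG8036 and CG9981, at 500, 499 and 498 bp, fell outside (71.4, 87.7 and 328). Signals on either side of both limits covered overlapping ranges.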

How the data were processed

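Values came from peak lists of 2 biological replicates on the dm6 build, 6 of which were used: the series-level thresholded and conservative lists, and each replicate's thresholded and ranked lists. Chromatin was sheared by sonication, per the labels' descriptions. For the aligner and the caller, name and settings were not given in the sources used here. Signal in the deposited lists is a value of the peak caller, with no stated scaling for depth, and was compared within a list. The score column, which the authors set from the irreproducible discovery rate, had a minimum of 830 in the deposited series-level list. The labels disagree on the antibody (GFP or slbo).

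A summit was the start plus the offset in the list. Of 8786 peaks, 72 off the 6 arms were left out. Gene models were Ensembl release 115 without transposable elements, and sequence was RefSeq's copy of the build. Per-replicate signal was that of the strongest peak of the replicate's ranked list over the summit. Overlap with a replicate was counted from 1 bp. Motifs and 6-mers were sought on both strands 50 bp to each side of the summit, against a window centred 450 bp away on a side drawn with a seed of 1. Intervals are 95% and cover counting error only. Alternatives covered the list, the replicate, the signal threshold, the start sites, the overlap, the window and the flank. The 6-mer scan was tested on simulated windows. Python 3.11.15, NumPy 2.4.6, pandas 2.3.3, SciPy 1.17.1 and statsmodels 0.14.6 were used.

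The members, motifs and the 19 gene lists were chosen with earlier results of these data known. Named genes are the hosts of the 12 strongest members found in both replicates, the 8 genes with most members (with ties), up to 3 genes of each list by strongest member, the 4 strongest such members with the C/EBP consensus (1 of which is not reported here), and the summits nearest to the limits. The list entries argos, Dl, sal and cut matched no gene symbol and were not used here.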

Additional observations from a re-analysis of the deposited data

How the results depend on the processing

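No paired comparison between groups was possible because the study has 1 group. The tests of motifs and 6-mers against flanks were paired within each peak. Of the 20 members that are the strongest, hold the C/EBP consensus or lie at the limits, 20 were in the conservative list and 20 were still members with start sites of protein-coding genes only. Of the 78 strongest members of list genes, 71 and 70 were. The share of members among summits was 14.35% in the conservative list, 14.3% at or above the list's median signal and 13.4% with protein-coding starts only, and 14.4% to 14.8% from 1 replicate's own list. The median signal was 127.0, 229.8 and 124.8 in the same order, and 81.0 to 82.4 in 1 replicate's own list, which is on its own scale. The share with a summit at the nearest start was 25.04% at or above the median signal and 30.6% to 36.2% from 1 replicate. In the former setting the start summits under the median signal were left out too, so its share is not one of stronger members alone. Overlap with both replicates, members minus introns farther out, was 0.762 points at or above the median signal and 2.30 points under it (chosen after seeing the data, exact test, adjusted p = 0.73). Overlap of 1 replicate's own summits with the other replicate's list differed by 4.63 to 7.31 points. From replicate 1's list the call was lost (exact test, adjusted p = 0.061), as it was above and under the median signal. Members minus promoter summits was 2.12 points at or above the median, 1.10 points under it, -2.07 points with a reciprocal overlap of at least 50% and -3.40 to -0.0337 points from 1 replicate's list against the other, and the call was lost in each of these but replicate 2's own list. Fixed motifs that differed from the flanks numbered 1, but 4 in the conservative list, 4 at or above the median signal, 0 with windows of 25 bp to each side and 1 to 2 from 1 replicate. Those that differed from promoter summits numbered 2 to 4 from 1 replicate. The C/EBP consensus minus its flank turned to -0.104 points with flanks that touch no exon. Called 6-mers numbered 278, but 316 to 393 from 1 replicate, 394 at or above the median signal, 80 with windows of 25 bp to each side and 104 with flanks that touch no exon. Host genes numbered 903, and 529 at or above the median signal. The cause of these changes was not tested, except that several settings use fewer summits. Depth is unknown, so no absence can be read from a missing peak.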
